A study of Rattus norvegicus with 12 samples.

Results

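This report describes 6 genes of fatty acid synthesis and desaturation in the degenerating rat retina. They are *Srebf1*, the regulator, *Acaca* and *Fasn*, which build fatty acids, and *Scd*, *Fads1* and *Fads2*, which put double bonds into them. The members were fixed by their Ensembl identifiers and chromosomes, and all 6 were found among the 32883 genes in the count files. All 6 passed the filter on low counts in every comparison. Whole retinas of RCS rats were collected at postnatal day 21 (p21) or p60, their polyadenylated RNA was sequenced, and the comparison of the ages asks how expression changes between the start of the disease and its advanced stage. There were 12 libraries, 3 for each combination of age and line. The immunocompetent line has the genotype RCS-p+ and is labelled WT and male. The athymic line has the genotype RCS-p+/Foxn1mu and is labelled female, so that line and labelled sex cannot be told apart. RCS rats of both lines carry the MerTK defect, no group had a healthy retina, and growth from p21 to p60 and degeneration over the same weeks therefore cannot be told apart. The labels do not say whether the libraries came from separate animals, so that p-values measure the spread between these libraries.

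Fatty acid synthesis starts from acetyl-CoA, which acetyl-CoA carboxylase 1 (from *Acaca*) turns into malonyl-CoA, and fatty acid synthase (from *Fasn*) then assembles palmitate. Stearoyl-CoA desaturase (from *Scd*) makes monounsaturated fatty acids, while the delta-6 desaturase (from *Fads2*) and the delta-5 desaturase (from *Fads1*) act in turn on the dietary omega-3 and omega-6 fatty acids, on the route to docosahexaenoic acid (DHA) and arachidonic acid. Photoreceptor outer segments are rich in DHA, which reaches the retina largely from the blood and is recycled through the retinal pigment epithelium, the layer whose uptake of shed outer segments fails when MerTK is lost. SREBP-1, encoded by *Srebf1*, is a membrane-bound transcription factor that, once cleaved, raises the transcription of lipogenic and desaturase genes.

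The libraries held 13852516 to 16725355 counts, and levels of the members below are given as CPM, counts scaled to library size with TMM factors. The sex-chromosome values and the high genes of this paragraph rest on CPM of total counts, without those factors. Within a condition every pair of libraries differed beyond counting noise (chi-square per degree of freedom of 4.12 to 24.3). Libraries 4, 5 and 22, all labelled female, had Y-chromosome counts of 328.3, 315.5 and 269.2 CPM, within or just above the 229.2 to 323 CPM of the 6 libraries labelled male, whereas the other 3 labelled female had 8.79 to 23.2 CPM. Libraries 4 and 5 are athymic at p21 and library 22 is athymic at p60, so that this split differs between the ages of that line. Its part in the athymic change, and in the difference in change between the lines, was not tested beyond leaving libraries out. Over 3 X-chromosome genes picked in earlier results of these data, library 3, labelled male, had 238.8 CPM, between the 3.74 to 8.28 CPM of the other libraries with high Y counts and the 402.4 to 665.8 CPM of the other 3 labelled female. Libraries 4, 19 and 24 each held 32 to 56 genes at least 8-fold above the median of the other 5 libraries of their age, against 0 to 11 such genes in the others. Results whose call rested on these libraries are given with and without them. The files pair no identifier with a gene name, so that the markers of rods, glia and other retinal cells were not analysed here and the labelled tissue was not checked.

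Upstream sequence is shown for the regulator and the 3 desaturases, the only members matched to a start window. Start windows from RefSeq (assembly GRCr8) were matched for 4 of the 6 members, and those of *Acaca* and *Fasn* were not analysed here. *Srebf1* has an upstream and a downstream start there, on chr10:45529165-45529414 and chr10:45519011-45519260, both on the minus strand. The window of *Fads1* is chr1:216252442-216252691 on the plus strand and that of *Fads2* is chr1:216172034-216172283 on the minus strand. The window of *Scd* is chr1:253231732-253231981 on the minus strand. Each run is the 250 bases before the start, 5′ to 3′, with CCAAT and GGGCGG matches on either strand in capitals.
Srebf1, upstream start: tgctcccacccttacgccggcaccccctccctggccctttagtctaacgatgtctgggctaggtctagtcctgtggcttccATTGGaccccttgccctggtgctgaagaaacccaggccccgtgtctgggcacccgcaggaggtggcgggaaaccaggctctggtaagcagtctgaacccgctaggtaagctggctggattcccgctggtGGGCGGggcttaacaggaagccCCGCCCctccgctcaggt
Srebf1, downstream start: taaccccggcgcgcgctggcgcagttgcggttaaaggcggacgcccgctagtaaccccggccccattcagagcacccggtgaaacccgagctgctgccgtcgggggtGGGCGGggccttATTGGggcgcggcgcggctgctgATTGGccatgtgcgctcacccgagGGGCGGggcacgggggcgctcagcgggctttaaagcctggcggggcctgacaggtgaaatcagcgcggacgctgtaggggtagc
Scd: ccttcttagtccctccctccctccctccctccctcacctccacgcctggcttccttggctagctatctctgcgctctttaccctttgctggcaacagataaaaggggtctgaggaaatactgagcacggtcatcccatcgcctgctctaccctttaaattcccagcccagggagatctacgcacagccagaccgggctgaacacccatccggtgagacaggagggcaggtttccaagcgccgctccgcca
Fads1: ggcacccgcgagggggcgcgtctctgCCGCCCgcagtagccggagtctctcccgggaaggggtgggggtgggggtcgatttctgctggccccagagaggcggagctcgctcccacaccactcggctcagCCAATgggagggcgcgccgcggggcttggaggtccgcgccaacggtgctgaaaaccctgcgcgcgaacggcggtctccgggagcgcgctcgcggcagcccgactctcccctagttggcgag
Fads2: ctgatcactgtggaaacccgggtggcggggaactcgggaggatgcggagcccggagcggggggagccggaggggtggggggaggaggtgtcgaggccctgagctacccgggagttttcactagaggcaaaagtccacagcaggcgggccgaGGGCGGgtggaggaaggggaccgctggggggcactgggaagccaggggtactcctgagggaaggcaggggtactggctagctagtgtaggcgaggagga

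CCAAT, a motif bound by NF-Y, and GGGCGG, the GC box bound by SP1, were searched together with the E-box CACGTG and the sterol regulatory element TCACNCCAC, on both strands. The downstream *Srebf1* window held 2 CCAAT and 2 GGGCGG matches, and the upstream window held 1 CCAAT and 2 GGGCGG matches. The *Fads1* window held 1 of each, the *Fads2* window held 1 GGGCGG, and no matches overlapped. The *Scd* window held none of the 4 motifs. CACGTG and TCACNCCAC were in none of the 5 windows. Only these exact letters were searched, so that a window without them may still hold an E-box or sterol regulatory element of another spelling. Among 33469 rat windows of the same length, 34.0% held CCAAT, 30.5% GGGCGG, 5.59% CACGTG and 0.974% TCACNCCAC. GC content was 64% and 70.4% in the *Srebf1* windows, 58.8% for *Scd*, 73.2% for *Fads1* and 68% for *Fads2*, against a median of 51.2% over all windows. A match of letters is a description and says nothing of binding in these retinas.

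Over both lines, 5 of the 6 genes rose from p21 to p60 and *Acaca* fell (edgeR's quasi-likelihood test, Benjamini-Hochberg adjusted p under 0.05). Of the 16069 genes tested, 62% were called, 31.7% higher and 30.3% lower, so that a call alone sets no member apart from the retina at large. The median log2 fold change was 0.47 over the 6 members and 0.015 over all genes. In whole retina, fewer cells of a type and less RNA per cell cannot be told apart, for these genes as for any other. The sizes differed within the group, from a 0.496-fold level of *Acaca* to a 1.68-fold level of *Scd*, and *Fasn* moved least, by 1.16-fold.

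**Figure D1:**
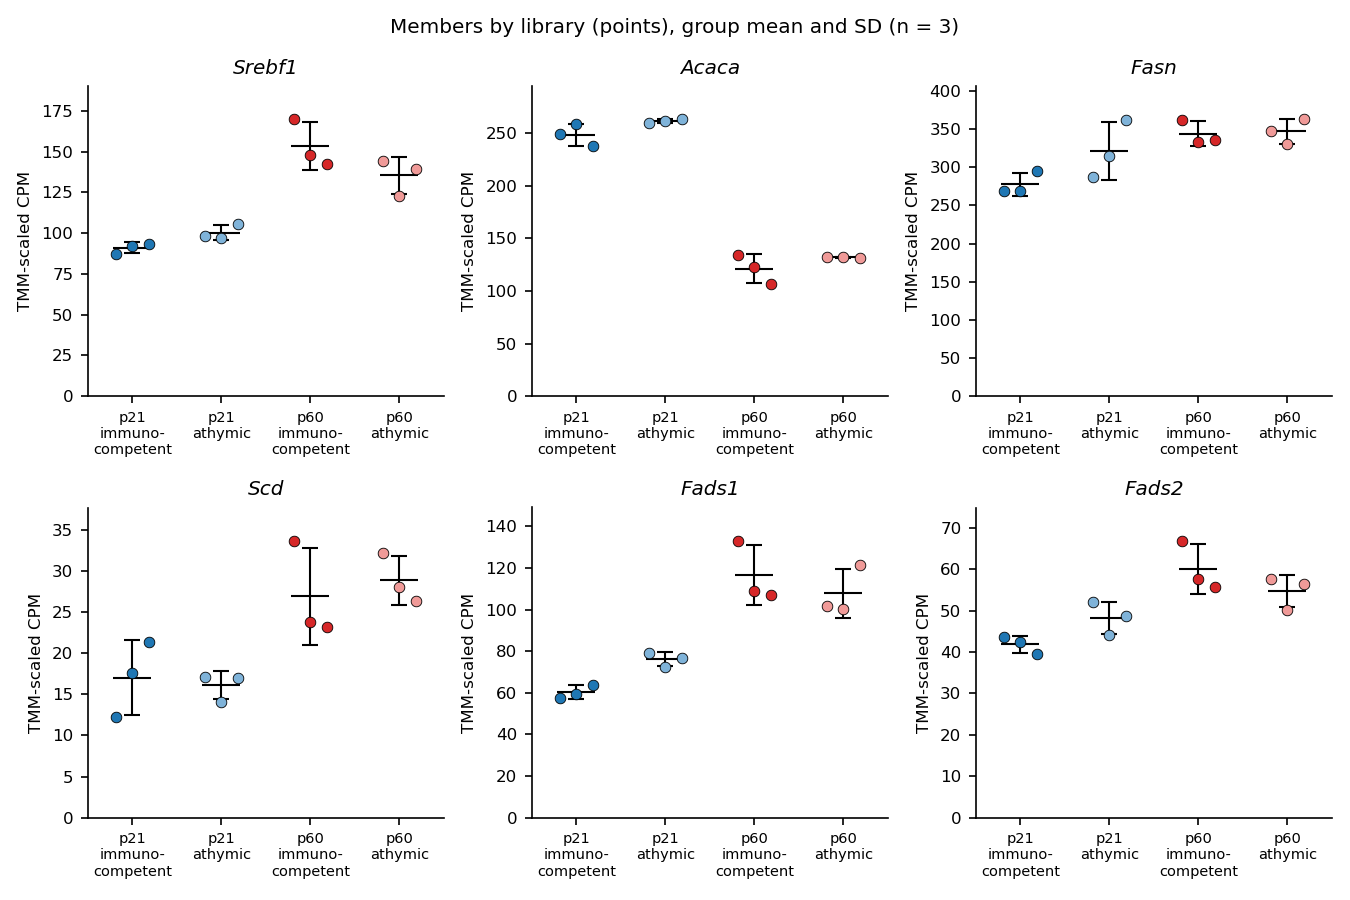
Levels of the 6 genes as TMM-scaled CPM (vertical axis, from 0) in the 4 combinations of age and line (horizontal axis). Points are libraries and the black marks are the mean and SD (n = 3). Acaca stands at 237.7 to 263.4 CPM in the p21 libraries and at 106.8 to 134.3 CPM in the p60 libraries, while the lowest p60 value of Srebf1, Scd and Fads1 lies above their highest p21 value.

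*Srebf1* (ENSRNOG00000003463, Rnor_6.0 chromosome 10, 46570996 to 46593009, minus strand) is the regulator of the group. At p21 its level was 87.0, 92.4 and 93.4 CPM in immunocompetent libraries 1, 2 and 3 and 98.3, 97.2 and 105.6 CPM in athymic libraries 4, 5 and 6. At p60 it was 169.9, 148.0 and 142.4 CPM in immunocompetent libraries 19, 20 and 21 and 144.1, 122.8 and 139.5 CPM in athymic libraries 22, 23 and 24. The lowest p60 value thus exceeded the highest p21 value. An exact permutation test, which ignored line, gave p = 0.00216 (two-sided, unadjusted, n = 6 against 6). This is the smallest p such a test can give. Every gene whose ages do not overlap gets it, as 40.4% of all genes tested did, so that it adds nothing to the lack of overlap. The log2 fold change was 0.59 (SE 0.0682, adjusted p = 3.91e-06). A gene on the opposite strand shares 588 exonic bases, 13.3% of the exonic length of *Srebf1*. The strand setting of the counting is not given in the sources used here. Reads from that stretch could thus come from either gene, and whether they were counted or left out is not known. The counts do not separate the transcripts of both starts.

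*Acaca* (ENSRNOG00000034013, chromosome 10, 71536533 to 71719910, plus strand) encodes the enzyme of the committed step of synthesis, and it was the only member that fell. The p21 libraries had 249.3, 258.9 and 237.7 CPM in the immunocompetent line and 259.9, 261.4 and 263.4 CPM in the athymic line. The p60 libraries had 134.3, 122.7 and 106.8 CPM in the immunocompetent line and 132.2, 132.5 and 131.3 CPM in the athymic line. The ages were far apart and the athymic libraries of each age nearly coincided. The log2 fold change was -1.01 (SE 0.0491, adjusted p = 5.48e-10), larger in size than that of 89.2% of all genes tested, and the exact permutation test gave p = 0.00216. For the other members that share of genes was 71.9% (*Srebf1*), 32.7% (*Fasn*), 80.9% (*Scd*), 79.7% (*Fads1*) and 50.7% (*Fads2*). The span of *Acaca* in the files covers 69.9% of the length that RefSeq lists for it, against 95.5% to 100.3% for the other members, and reads from exons outside the files' model were not counted.

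*Fasn* (ENSRNOG00000045636, chromosome 10, 109987735 to 110005901, minus strand) encodes the synthase that follows. Its p21 level was 269.5, 268.9 and 295.5 CPM in the immunocompetent line and 287.5, 315.3 and 362.4 CPM in the athymic line. Its p60 level was 362.7, 333.1 and 335.6 CPM in the immunocompetent line and 348.1, 330.6 and 363.1 CPM in the athymic line. The ages overlapped, because athymic library 6 at p21 lay inside the p60 range. The log2 fold change was 0.21 (SE 0.0604, adjusted p = 0.00824), and the exact permutation test gave p = 0.0173. This call was lost without libraries 4, 19 and 24 (log2 fold change 0.15, adjusted p = 0.0669) and without libraries 3, 4, 5 and 22 (0.20, adjusted p = 0.0848), the sets with many high genes and with sex-chromosome counts apart from the label.

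*Scd* (ENSRNOG00000013552, chromosome 1, 264160129 to 264172729, minus strand), the desaturase that makes oleate and palmitoleate, was the weakest member, with 154 to 544 counts a library. It had 12.2, 17.6 and 21.3 CPM in the immunocompetent line at p21 and 17.1, 14.1 and 17.1 CPM in the athymic line. At p60 it had 33.7, 23.9 and 23.2 CPM in the immunocompetent line and 32.2, 28.0 and 26.4 CPM in the athymic line. The ages did not overlap, although the immunocompetent libraries spread widely at both ages. The log2 fold change was 0.75 (SE 0.131, adjusted p = 0.000192) and the exact permutation test gave p = 0.00216. The level of *Scd* is uncertain as far as its reads also fit another gene, which was not checked, and no sequences of genes were compared. The gene ENSRNOG00000046005, singled out after its values were seen, starts on the opposite strand at chromosome 1, 264059374, ends at 264072433, and has a span of 13060 bp, which is the span RefSeq lists for *Scd2*, a neighbour of *Scd*. The files do not name it. Its level was 227.0 to 323.5 TPM, a level scaled to exonic length, at p21 and 515.4 to 626.8 TPM at p60, which is 29.4 to 51.6 times that of *Scd* in the same library. It rose by a log2 fold change of 0.82 (SE 0.0734, edgeR's quasi-likelihood adjusted p = 3.21e-07).

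*Fads1* (ENSRNOG00000020480, chromosome 1, 226234074 to 226249138, plus strand) encodes the delta-5 desaturase. At p21 it had 57.6, 59.3 and 64.0 CPM in the immunocompetent line and 79.2, 72.6 and 76.5 CPM in the athymic line. At p60 it had 133.1, 109.1 and 107.3 CPM in the immunocompetent line and 101.8, 100.2 and 121.4 CPM in the athymic line. Neither age overlapped the other. At p21 every athymic library was above every immunocompetent one, but the share of all genes with lines so separated was not counted. The log2 fold change was 0.72 (SE 0.0884, adjusted p = 6.96e-06), and the exact permutation test gave p = 0.00216.

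*Fads2* (ENSRNOG00000020440, chromosome 1, 226114413 to 226152524, minus strand) encodes the delta-6 desaturase, which acts first on the route to DHA, and lies 81549 bp from *Fads1*. Its p21 level was 43.6, 42.5 and 39.6 CPM in the immunocompetent line and 52.0, 44.2 and 48.6 CPM in the athymic line. Its p60 level was 66.9, 57.8 and 55.6 CPM in the immunocompetent line and 57.6, 50.2 and 56.4 CPM in the athymic line. The ages overlapped only through library 23 at p60, which was below library 4 at p21. The log2 fold change was 0.35 (SE 0.0760, adjusted p = 0.00113), and the exact permutation test gave p = 0.00433. Among all genes tested, 40.4% had no overlap between the ages, 19.8% with p60 higher and 20.5% with p60 lower, beside 4 of the 6 members.

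**Figure D2:**
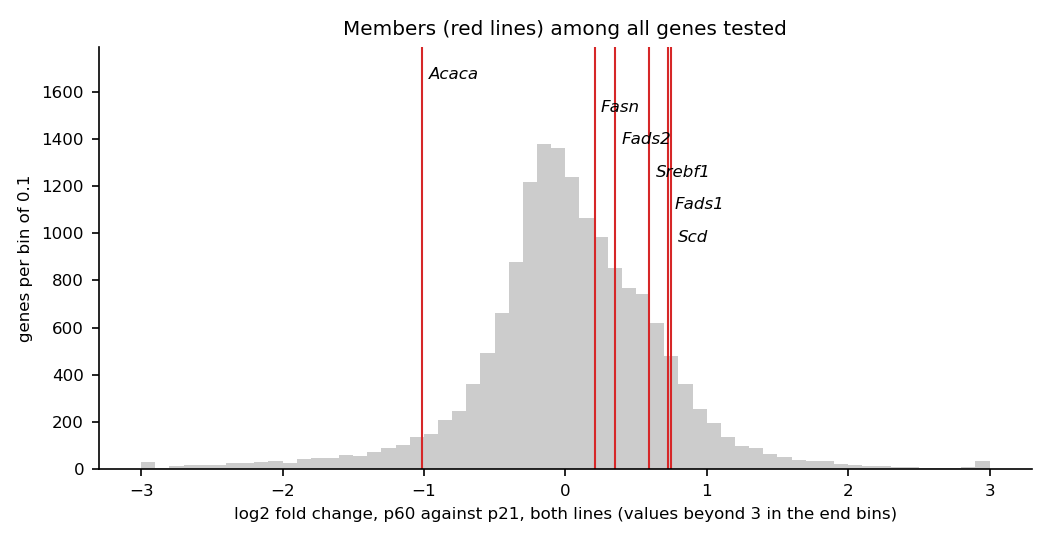
Histogram of the log2 fold change from p21 to p60 over both lines (horizontal axis, bins of 0.1) for the 16069 genes tested (vertical axis, genes per bin), with the 6 members as red lines. Acaca lies in the left flank at -1.01, Fasn at 0.21 is nearest to the centre, and the other 4 lie to the right of it between 0.35 and 0.75.

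Each line was then tested on its own, in fits that share no library. In the immunocompetent line all 6 members were called, 5 higher and 1 lower, where 51.4% of 15412 genes were called (25.6% higher and 25.8% lower). *Fads1* had the largest rise there, with a log2 fold change of 0.95 (SE 0.0920, adjusted p = 3.42e-05), followed by *Srebf1* at 0.75, *Scd* at 0.65, *Fads2* at 0.52 and *Fasn* at 0.30. *Acaca* changed by -1.04 (SE 0.0850, adjusted p = 1.17e-05). The call of *Scd* (SE 0.209, adjusted p = 0.0263) was lost when any of libraries 1, 2 or 19 was left out, with log2 fold changes of 0.47, 0.68 and 0.46 and adjusted p of 0.0705, 0.0684 and 0.0658. Library 19, one of those with many high genes, was the highest of the p60 immunocompetent libraries for 6 of the 6 members. How often it was the highest over all genes was not counted. The part of this library in these rises was not tested beyond leaving it out.

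In the athymic line 4 of the 6 members were called, 3 higher and 1 lower, where 49.9% of 15507 genes were called (25.3% higher and 24.6% lower). *Scd* rose by 0.84 on the log2 scale (SE 0.111, adjusted p = 0.000363), *Fads1* by 0.50 (SE 0.0833, adjusted p = 0.00130) and *Srebf1* by 0.43 (SE 0.0738, adjusted p = 0.00153). *Acaca* changed by -0.99 (SE 0.0497, adjusted p = 1.33e-06). *Fasn* and *Fads2* did not pass, with log2 fold changes of 0.10 (95% interval -0.099 to 0.308, adjusted p = 0.359) and 0.18 (-0.00359 to 0.358, adjusted p = 0.0936). The call of *Srebf1* was lost without libraries 3, 4, 5 and 22 (log2 fold change 0.30, adjusted p = 0.116), which leaves library 6 as the single athymic library at p21. Scaling by total counts, under which the median change over all genes in this line went from 0.0094 to 0.20 (log2), added calls for *Fasn* (0.29, adjusted p = 0.0180) and *Fads2* (0.37, adjusted p = 0.00496). That scaling called 8253 of all 15507 genes, 6027 higher and 2226 lower, against 3923 higher and 3817 lower with TMM factors. The 4 members called in both lines in the same direction were *Srebf1*, *Scd* and *Fads1*, which rose, and *Acaca*, which fell, where 40.4% of 15225 genes were (19.9% higher and 20.6% lower). The sign of the change was the same in both lines for 6 of the 6 members and for 85.4% of those genes.

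**Figure D3:**
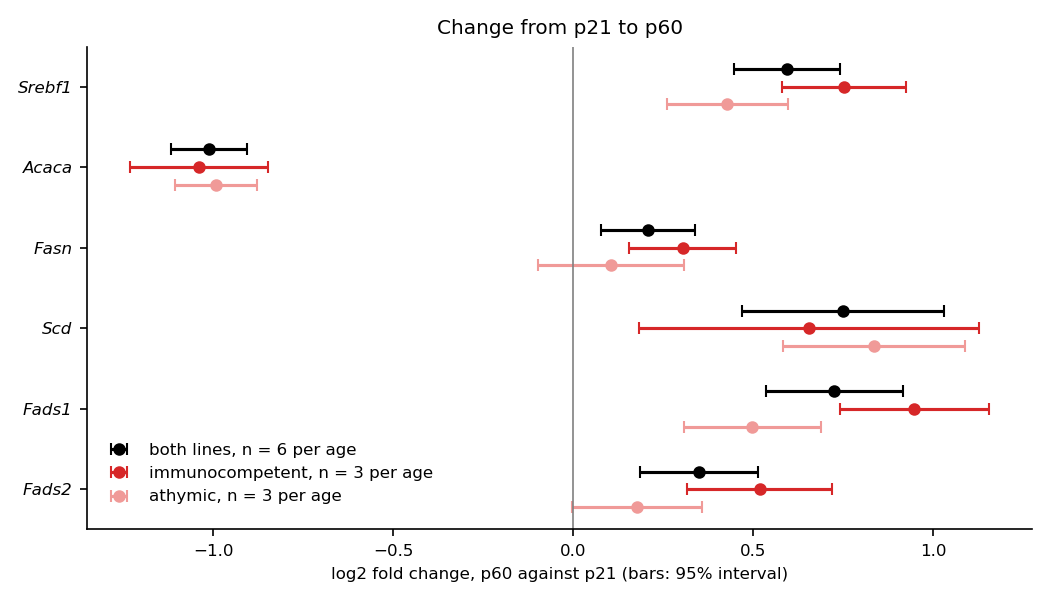
Log2 fold change from p21 to p60 (horizontal axis) with its 95% interval (bars) for each member, over both lines (black, n = 6 per age), in the immunocompetent line (red, n = 3 per age) and in the athymic line (pale red, n = 3 per age). For Fads1 the points are 0.95 and 0.50, for Acaca -1.04 and -0.99, and the athymic intervals of Fasn and Fads2 cross 0.

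The difference in change between the lines was tested directly, as the athymic minus the immunocompetent log2 fold change. No member passed in edgeR's quasi-likelihood test, where 0.00622% of 16069 genes did (1 gene), nor in DESeq2. At an unadjusted p under 0.05 there were 3 members, all with a negative difference, beside 9.3% of all genes (5.85% positive and 3.45% negative). *Fads1* had a difference of -0.45 (SE 0.130, adjusted p = 0.254), *Fads2* of -0.34 (SE 0.125, adjusted p = 0.404) and *Srebf1* of -0.32 (SE 0.107, adjusted p = 0.341). For these 3 genes the smaller rise in the athymic line was thus not shown to differ from that in the immunocompetent line once all genes were adjusted for. The intervals were -0.165 to 0.264 for *Acaca*, -0.437 to 0.0438 for *Fasn* and -0.383 to 0.752 for *Scd*, and that of *Scd*, the member with the fewest counts, was the widest of the 6.

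At p21 the athymic libraries were compared with the immunocompetent ones. No member and 0% of 15225 genes passed in edgeR's quasi-likelihood test, while 3 members had an unadjusted p under 0.05, all higher in the athymic line, as did 1936 genes (12.7%, with 6.63% higher and 6.08% lower). *Fads1* was the clearest, with a log2 fold change of 0.34 (SE 0.0729, adjusted p = 0.268), and it did pass in DESeq2 (0.34, adjusted p = 0.0267), and without the filter on low counts (0.35, adjusted p = 0.0322), settings that called 140 and 282 genes in all. Without libraries 3, 4, 5 and 22 only library 6 was left in the athymic arm, assumed to vary like the other libraries, and 1257 genes were called. *Fads1* (0.40, adjusted p = 0.0121) and *Fasn* (0.44, adjusted p = 0.000118) were among them, which compares that library with 2 others and not the lines. In the other fits *Fasn* did not pass (0.22, adjusted p = 0.349). *Fads2* (0.21, adjusted p = 0.322) passed under no alternative. *Srebf1* (0.15, adjusted p = 0.397), *Acaca* (0.078, adjusted p = 0.590) and *Scd* (-0.078, adjusted p = 0.895) passed in neither the main fit nor any alternative.

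At p60 no member passed in edgeR's quasi-likelihood test or in DESeq2, where 0.0193% of 15557 genes did in edgeR (3 genes, 0.0129% higher and 0.00643% lower). No member had an unadjusted p under 0.05, beside 9.4% of all genes (5.53% higher and 3.87% lower). The log2 differences ran from -0.18 for *Srebf1* (95% interval -0.383 to 0.0236) to 0.12 for *Acaca* (-0.0686 to 0.312). *Fads1* was at -0.11 (-0.364 to 0.139) and *Fads2* at -0.13 (-0.351 to 0.0826). *Fasn* was at 0.015 (-0.125 to 0.154) and *Scd* at 0.10 (-0.258 to 0.458).

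Levels of different genes were compared per exonic length, as TPM. At p21 *Acaca* had the highest mean, 72.1 ± 3.65 TPM (SD, n = 6), ahead of *Fads2* at 63.7 ± 6.30 TPM and *Fasn* at 63.1 ± 8.84 TPM. These 3 overlapped, and *Acaca* was the highest in 4 of 6 libraries. *Srebf1* at 41.5 ± 3.68 TPM and *Fads1* at 38.4 ± 5.71 TPM came next and overlapped each other. *Scd* was far below at 7.14 TPM (range 4.95 to 9.46 TPM), and the median of the genes tested was 20.4 TPM.

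At p60 the order was another one. *Fads2* was the highest member in 6 of 6 libraries, at 94.6 ± 9.25 TPM (SD, n = 6), and *Fasn* was second in 6 of 6, at 84.6 ± 3.99 TPM, although their ranges overlapped. *Fads1* at 73.5 ± 8.59 TPM and *Srebf1* at 72.9 ± 7.92 TPM could not be separated, each standing above the other in 3 of 6 libraries. *Acaca* was now above *Scd* alone in 6 of 6, at 41.7 ± 3.59 TPM, and *Scd* remained last at 14.0 ± 2.18 TPM, below the median of 23.6 TPM. The gene model of *Fads2* in the files is 1359 bp long, a multiple of 3, with a last exon of 160 bp, whereas that of *Fads1* is 3416 bp long with a last exon of 2009 bp. The place of *Fads2* in the order therefore depends on this length. Whether the model holds the coding sequence alone was not checked, and how its level would stand over a longer transcript was not tested.

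**Figure D4:**
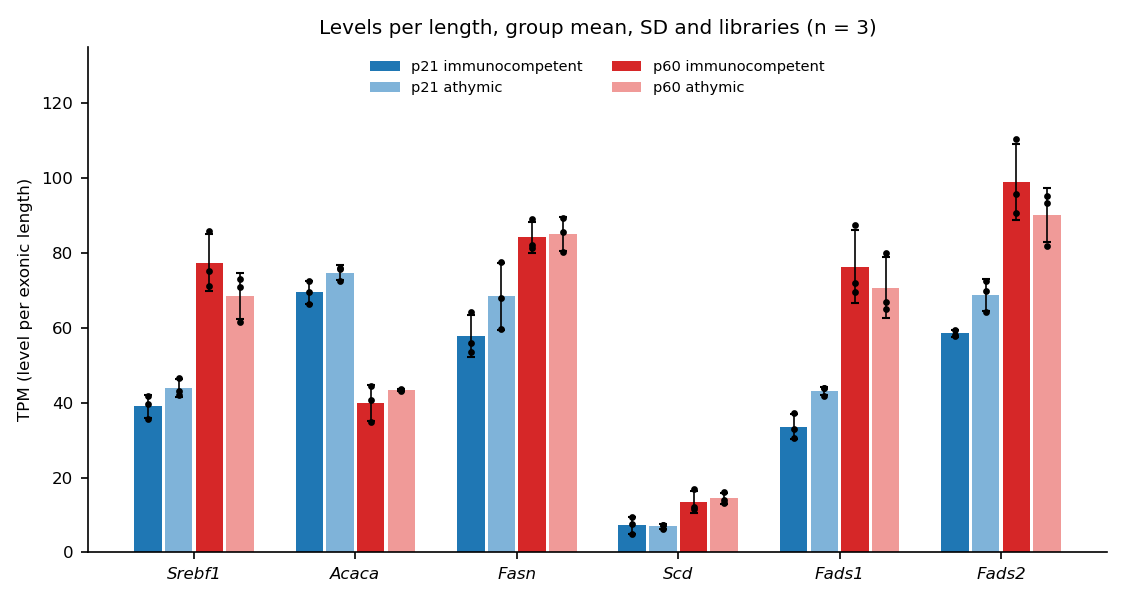
Level per exonic length as TPM (vertical axis, from 0) for each member, with bars for the mean of each combination of age and line, error bars for the SD and dots for the libraries (n = 3). Acaca is the highest member by its mean at p21 and stands above Scd alone at p60, and Scd stays lowest throughout.

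Ratios inside a library do not depend on how libraries are scaled, and they are given as descriptions. Their size does depend on the gene models in the files, including the short ones of *Fads2* and *Acaca*. The ratio of *Fasn* to *Acaca*, the enzyme after malonyl-CoA over the enzyme that makes it, was 0.874 ± 0.093 at p21 (SD, n = 6, range 0.772 to 1.02) and 2.04 ± 0.162 at p60 (range 1.86 to 2.34). The ages did not overlap, and the gap held in each line. The ratio of *Fads2* to *Fads1* was 1.67 ± 0.147 at p21 (range 1.53 to 1.90) and 1.29 ± 0.0847 at p60 (range 1.17 to 1.42), also with no overlap. The delta-5 desaturase transcript thus gained on the delta-6 transcript in both lines. In mean CPM, with no division by length, *Fads1* was above *Fads2* at both ages. The values were 68.2 against 45.1 CPM at p21 and 112.1 against 57.4 CPM at p60. The ratio of *Scd* to *Fasn* was 0.114 ± 0.0239 at p21 and 0.165 ± 0.0220 at p60, and its ranges, 0.0915 to 0.147 and 0.141 to 0.190, overlapped.

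**Figure D5:**
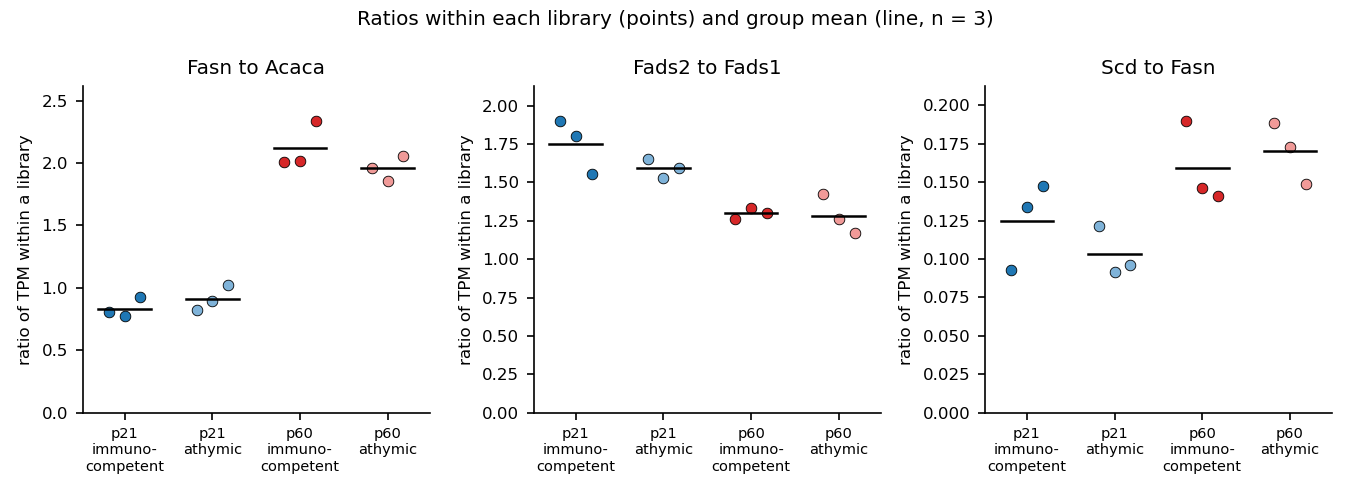
Ratio of TPM within each library (vertical axes, from 0) for Fasn to Acaca, Fads2 to Fads1 and Scd to Fasn, by age and line. Points are libraries and lines are group means (n = 3). The first ratio lies between 0.772 and 1.02 at p21 and between 1.86 and 2.34 at p60, and the second falls from 1.53 to 1.90 at p21 to 1.17 to 1.42 at p60.

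The genes most like each member over the 12 libraries were found by Pearson's r of log2 CPM among 13725 genes. The libraries fall into the ages, which every such r shares, so that these values are descriptions with no p. For *Acaca* the nearest were ENSRNOG00000055382 (r = 0.997, log2 fold change -1.45) and ENSRNOG00000004473 (r = 0.995, log2 fold change -1.37), and 1927 genes had r over 0.9. For *Fads1* the nearest was ENSRNOG00000011058 (r = 0.990, log2 fold change 0.64), with 967 genes over 0.9. The closest match of *Srebf1* had r = 0.989, with 1142 genes over 0.9. *Scd* (0.959, 159 genes), *Fads2* (0.967, 97 genes) and *Fasn* (0.954, 44 genes) had fewer close matches, and no member was among the closest 2 genes of another.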

How the data were processed

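Whole-retina libraries of RCS rats, 3 per age and line, were grouped by their titles. The authors prepared polyA-selected libraries and deposited raw counts per gene. The submitters' processing notes name STAR 2.5.2b, featureCounts from Subread 1.5.2, DESeq2 and Rnor_6.0. The paper's methods name another version of featureCounts, so that the version behind these counts is not settled. The strand setting and the handling of multimapping reads are not given in the sources used here.

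The deposited counts were filtered with filterByExpr (minimum count 10, minimum total 15), scaled with TMM factors and tested with edgeR 4.0.16 (R 4.3.3) by the quasi-likelihood test, with Benjamini-Hochberg adjustment over all genes and a threshold of 0.05. Line was a covariate in the comparison over both lines. SEs were the size of the log2 fold change divided by the square root of F, and intervals are at 95%. TPM was computed from the counts and the exonic lengths in the files. Permutation tests used scipy 1.17.1 and plots matplotlib 3.10.9. The fits were tested on simulated data. Every member was named in every comparison, with its 2 most similar genes as candidates, of which at most 2 that rose and 2 that fell were named by identifier. Members, lists and alternatives were chosen with earlier results of these data known.

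Alternatives were relative log expression or total-count scaling, other count filters, DESeq2 1.42.0, other models, leaving out single libraries, and leaving out 2 sets of libraries. Of the identifiers, 0 matched the gene table, so that pathway and cell type lists were not analysed here. Depth was 13852516 to 16725355 counts, and no library was left out of the main results.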

Additional observations from a re-analysis of the deposited data

How the results depend on the processing

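Over both lines, *Srebf1*, *Acaca*, *Scd*, *Fads1* and *Fads2* kept their direction and stayed past the threshold in 21 of 21 alternatives, with log2 fold changes of 0.54 to 0.78, -1.06 to -0.82, 0.67 to 0.94, 0.65 to 0.91 and 0.30 to 0.54. *Fasn* (0.15 to 0.40) stayed past it in 19 of 21. Under total-count scaling the median change over all genes went from 0.015 to 0.20 (log2) and the share of calls that were higher went from 51.1% to 71.7%, and no member changed direction from p21 to p60. No paired analysis was possible because the labels number the libraries singly, with no number shared between groups.

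In the athymic line, *Fasn* turned to -0.0202 without libraries 4, 19 and 24 and to -0.0765 without libraries 3, 4, 5 and 22. The latter also brought the calls in that line from 7740 to 3342, with fewer samples in the fit. The interaction of *Scd* turned to -0.20 there, and its difference between the lines at p21 to 0.20. Leaving out 1 library in turn gave ranges that cross 0 for the interaction of *Scd* (-0.0269 to 0.38) and *Acaca* (-0.0351 to 0.13), and for the line difference of *Scd* at p21 (-0.27 to 0.12). At p60 the ranges crossing 0 were -0.215 to 0.00123 for *Fads1*, -0.0264 to 0.0613 for *Fasn* and -0.00866 to 0.301 for *Scd*. None of these values passed the test.

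Counts of calls between the lines were unstable, and the cause was not tested. For the interaction (1 gene) they were 115 with no filter, 0 with at least 10 counts in every library, 146 in DESeq2, 3 without libraries 4, 19 and 24, 0 without libraries 3, 4, 5 and 22, and 1 to 138 when 1 library was left out (138 without library 1, 92 without library 24, 8 without library 6). For the lines at p21 (0 genes) they were 282 with no filter, 140 in DESeq2, 1257 without libraries 3, 4, 5 and 22, and 0 to 85 when 1 library was left out (85 without library 1, 18 without 3, 7 without 6, 4 without 5). Members called there numbered 1 with no filter, 1 in DESeq2 and 2 without libraries 3, 4, 5 and 22. For the lines at p60 (3 genes) they were 11 with no filter, 106 in DESeq2, 179 without libraries 4, 19 and 24, 26 without libraries 3, 4, 5 and 22, and 0 to 61 when 1 library was left out (61 without library 24, 26 without 22, 0 without 20, 21 or 23). At p60 the set of libraries 3, 4, 5 and 22 removes library 22 alone. FPKM over TMM-scaled library size, in place of TPM, moved the change per length of 5 of the 6 members. The move was larger than the SD between libraries of an age, lines pooled. The log2 change was lower with FPKM for every member. It was 0.59 for *Srebf1* and 0.20 for *Fasn*, against 0.76 to 0.86 and 0.38 to 0.49 in TPM with 1 library left out. TPM levels thus rise more between the ages than TMM-scaled ones, or, for *Acaca*, fall less.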
